A study of Arabidopsis thaliana with 12 samples.

Results

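The nuclear genes for light-harvesting antenna proteins and photosystem subunits are described here in Arabidopsis thaliana seedlings at the dark-to-light transition. The set was defined by name from the known protein families, with no cut on measured values, but with earlier results of these data known. It holds 45 of the 33655 genes in the deposited count table. It has 6 LHCA genes (photosystem I antenna), 15 LHCB genes (photosystem II antenna), 13 genes of photosystem I subunits from PSAD to PSAP and 11 genes of photosystem II subunits from PSBO to PSBY together with PSB27. All 45 had enough counts to be tested, the lowest count of any of them in any library being 13.

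Photosystem II splits water and photosystem I passes the electrons on to ferredoxin, and both sit in the thylakoid membranes of the chloroplast. Around each core, LHC proteins bind chlorophyll and carry absorbed light to it: LHCB1, LHCB2 and LHCB3 form trimers, LHCB4, LHCB5 and LHCB6 are monomeric linkers next to photosystem II, and LHCA1 to LHCA4 form a belt on photosystem I. A seedling kept in the dark makes hardly any chlorophyll, because the last reduction step before it needs light, and phytochromes that absorb red light are known to raise the transcripts of many of these genes.

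Whole seedlings were compared in 4 groups with 3 libraries each. One genotype was wild type Col-0. The other was a double mutant, b''ab''b, whose name points to B''α and B''β, which are regulatory subunits of the protein phosphatase PP2A; the sources used here do not describe its alleles. All seeds had 3 days of cold and then 3 h of white light (25 µmol m-2 s-1), and all seedlings had 4 days of darkness at 22 °C on medium without sucrose. They were then sampled from the dark or after 1 h of continuous red light (8 µmol m-2 s-1). Each read of these 3′ tag libraries comes from near the end of a transcript, so levels are given as CPM (counts scaled to library size with TMM factors) and are not divided by gene length. The labels do not say whether replicates were separate cultures, and the spread that p-values rest on may therefore be technical.

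The libraries held 2874429 to 4979055 counts, and a count of 0 would allow up to 3 counts, or 0.603 to 1.04 CPM (counting error only). B''α transcripts ranged from 24.4 to 31.2 CPM over the 6 libraries of the wild type and from 3.88 to 6.29 CPM over the 6 of the mutant, and B''β from 1.96 to 4.96 and from 0.749 to 2.06 CPM. The B''β ranges overlapped, and its counts in the mutant libraries were only 3 to 9. B''α was called lower in the mutant in the dark and in red light, and B''β in neither, by the edgeR test described below. On the second principal component (9.92% of the variance), the dark libraries of wild type replicate 1 (score 27.5) and mutant replicate 3 (score 25) stood apart from the other 4 dark libraries (−20.2 to −8.15). The red light libraries spread less, with 11.2 for wild type replicate 2 and 13.2 for mutant replicate 3 against −7.84 to 1.21. Seed storage transcripts were highest in the dark library of mutant replicate 1, where CRC reached 15.9 CPM against at most 1.94 CPM elsewhere. Of 17 root hair, endodermis, dividing cell and guard cell markers, 1 was lower in wild type red light than in the dark (MYB60, log2 −0.48) and none was called in the mutant, by the edgeR test described next. Of the 6 seed-stage genes 3 were tested, and MLS, malate synthase of oil breakdown, was lower in wild type red light (log2 −0.44 ± 0.12, edgeR adjusted p = 0.0164) and not called in the mutant (−0.26 ± 0.12, adjusted p = 0.186). The other 2 were called in neither genotype. In the wild type, mean OLEO1 was higher in red light (3.49 against 1.79 CPM) and mean ICL slightly lower (1912 against 2033 CPM). PORA and PORB, the abundant reductases of etiolated cotyledons, held 1877 to 2123 CPM in the dark libraries and 1137 to 1506 CPM in red light. Both fell in both genotypes, by 0.59 and 0.60 on the log2 scale in the wild type (edgeR adjusted p = 9.99e-07 and 3.04e-07) and by 0.67 and 0.66 in the mutant (edgeR adjusted p = 1.28e-07 and 6.70e-08). The part of these markers in the changes and genotype differences given below was not tested.

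Together these 45 genes made up 8.57 to 9.43% of all counts in the 6 dark libraries and 10.4 to 10.9% in the 6 red light libraries. In whole seedlings, more RNA per cell and more cells of a type cannot be told apart. After 1 h of red light, 41 of the 45 rose in the wild type and none fell, and 42 of the 45 rose in the mutant and none fell (edgeR quasi-likelihood test on all 18487 genes tested, Benjamini-Hochberg adjusted p under 0.05, n = 3 per group). Of all genes tested, 10.6% were called higher in the wild type and 10.7% in the mutant, and 4.68% and 5.27% lower. The fitted change was positive for all 45 genes in both genotypes. The median log2 change over the 45 genes was 0.29 in the wild type and 0.36 in the mutant, and over all genes tested it was −0.021 and −0.014. In 43 genes every wild type red light library lay above every wild type dark library, a pattern that 16.5% of all genes tested showed. In the mutant the same held for all 45 genes, against 17% of all genes tested.

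**Figure D1:**
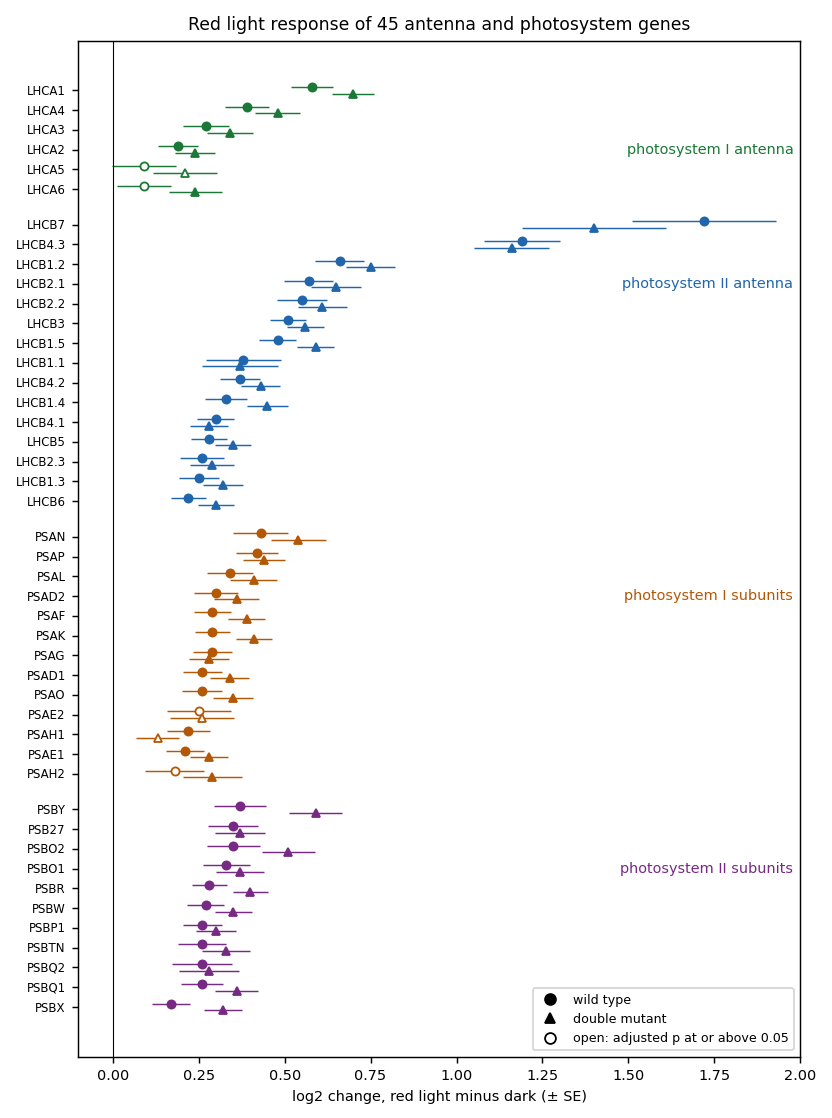
Fitted log2 change from dark to red light (horizontal axis, ± SE) for each of the 45 genes, by class, with circles for the wild type and triangles for the double mutant; filled symbols mark an adjusted p under 0.05. All symbols lie above 0, and LHCB7 and LHCB4.3 lie above 1 in both genotypes.

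These changes depend on how library sizes were scaled. With plain library totals, an alternative added after the data were seen, the median of all genes tested moved to −0.14 in the wild type and −0.15 in the mutant, and all-gene calls moved from 1954 higher and 865 lower to 1500 higher and 2006 lower in the wild type, and from 1983 and 975 to 1517 and 2342 in the mutant. On that scale 28 of the 45 genes rose in the wild type and 35 in the mutant, and none fell. Set against the all-gene median, the median of the 45 genes was 0.31 higher in the wild type and 0.37 higher in the mutant on that scale. LHCA5, LHCA6 and PSAH1 had fitted changes at or below 0 there in 1 genotype each, with no call.

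The antenna of photosystem II held the 3 genes with the largest mean changes. All 15 LHCB genes rose in both genotypes, with a median log2 change of 0.38 in the wild type and 0.45 in the mutant and a range of 0.22 to 1.72 and 0.28 to 1.40. Summed over the 15 genes, the level went from 37668, 39369 and 39939 CPM in the dark to 49199, 50922 and 50534 CPM in wild type red light. In the mutant the sum was 41072, 37388 and 35350 CPM in the dark and 49788, 52835 and 50739 CPM in red light. All red light sums were above all dark sums, a mean rise of 28.8% in the wild type and 34.8% in the mutant. The sum of the 6 LHCA genes rose by 27.7% and 35.4%, that of the photosystem I subunits by 22% and 28%, and that of the photosystem II subunits by 21.4% and 29.2%.

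**Figure D2:**
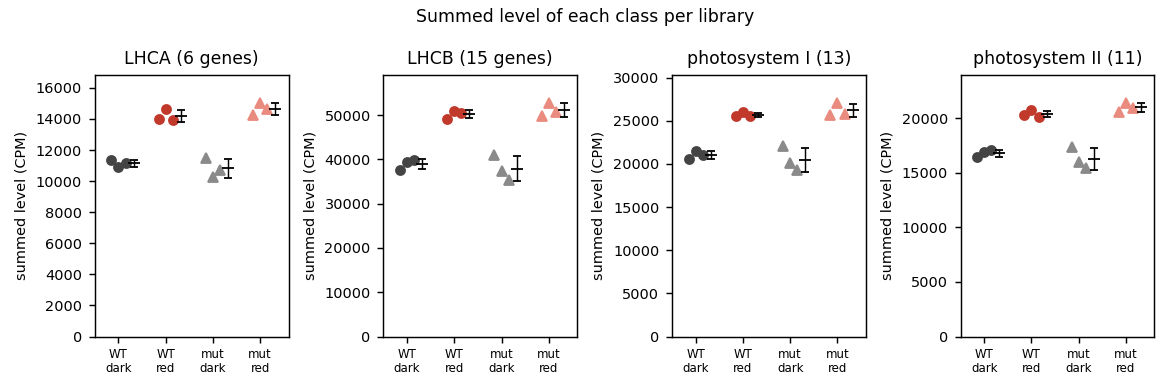
Summed level of each class in CPM (vertical axis from 0) for each library in the 4 groups; points are libraries and bars are the mean ± SD of 3. In each class the red light libraries lie above all dark libraries of both genotypes, and the mutant dark libraries are the most spread of the 4 groups.

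LHCB7 (AT1G76570, chromosome 1, 28728998 to 28730851, plus strand, in TAIR10.1) encodes a rare antenna protein related to the LHCB family and gave the largest fold change. Its level was 8.28, 4.69 and 7.2 CPM in the wild type dark libraries and 19.8, 24.7 and 23.4 CPM in red light. The mutant libraries held 4.41, 9.44 and 8.69 CPM in the dark and 22.4, 18.6 and 21 CPM in red light. It was the least abundant of the 45 genes in the dark and every red light library held more than any dark library. The rise was 3.28-fold in the wild type (log2 1.72 ± 0.21 SE, edgeR adjusted p = 1.75e-06) and 2.63-fold in the mutant (log2 1.40 ± 0.21, edgeR adjusted p = 2.39e-05). Its counts per library were the lowest of the set, and its SE the widest.

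LHCB4.3 (AT2G40100, chromosome 2, 16745628 to 16747424, plus strand), a minor isoform of the linker protein CP29, came next. It stood at 24.1, 22.3 and 25 CPM in the wild type dark libraries and 54.1, 55.5 and 53.3 CPM in red light. The mutant libraries held 24.1, 22.9 and 27.2 CPM in the dark and 57.5, 54.8 and 54.9 CPM in red light. The groups did not overlap, and the level rose 2.28-fold in the wild type (log2 1.19 ± 0.11, edgeR adjusted p = 9.76e-09) and 2.24-fold in the mutant (log2 1.16 ± 0.11, edgeR adjusted p = 1.01e-08).

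Among the abundant antenna genes, LHCB1.2 (AT1G29910, chromosome 1, 10472280 to 10473502, minus strand) rose most. It is 1 of 5 genes for the main trimer protein. Its level was 1926, 2302 and 2249 CPM in the wild type dark libraries against 3247, 3352 and 3598 CPM in red light. Mutant libraries held 2250, 2118 and 1840 CPM in the dark against 3550, 3557 and 3361 CPM in red light. The log2 change was 0.66 ± 0.07 in the wild type (edgeR adjusted p = 2.51e-07) and 0.75 ± 0.07 in the mutant (edgeR adjusted p = 2.50e-08).

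**Figure D3:**
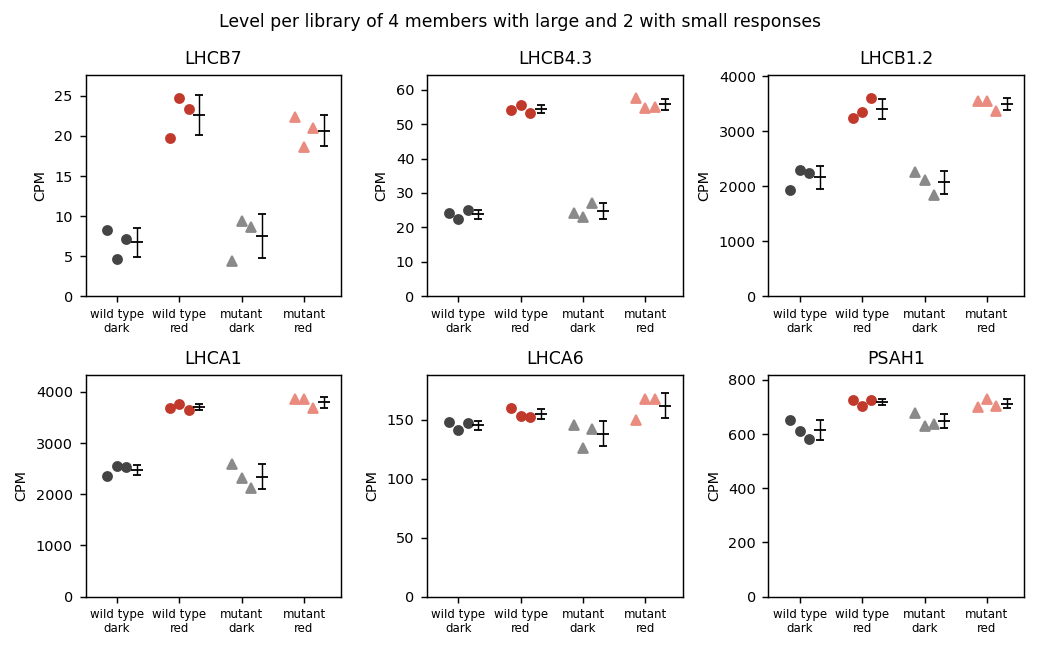
Level in CPM (vertical axis from 0) per library for LHCB7, LHCB4.3, LHCB1.2, LHCA1, LHCA6 and PSAH1 in the 4 groups; points are libraries and bars are the mean ± SD of 3. Red light libraries lie far above dark libraries in the first 4 genes and close to them in LHCA6 and PSAH1.

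The trimer genes LHCB2.1, LHCB2.2 and LHCB3 had log2 changes of 0.57, 0.55 and 0.51 in the wild type and 0.65, 0.61 and 0.56 in the mutant. LHCB2 proteins are known as the ones that carry the phosphate by which the antenna moves between photosystems. At the low end in the wild type stood LHCB6 (CP24, 0.22 ± 0.05, edgeR adjusted p = 0.00378) and LHCB1.3 (0.25 ± 0.06, edgeR adjusted p = 0.00394). In the mutant LHCB4.1 (0.28 ± 0.05, edgeR adjusted p = 5.58e-04) and LHCB2.3 (0.29 ± 0.06, edgeR adjusted p = 0.00209) had the smallest LHCB changes. LHCB5, the linker CP26, changed by 0.28 and 0.35.

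LHCB1.1 differed between dark libraries. It stood at 3217 CPM in wild type replicate 1 and 2981 CPM in mutant replicate 3, the libraries that stood apart on the second component, and at 4051 to 4561 CPM in the other 4 dark libraries. This was not particular to LHCB1.1. Among others, LHCB1.2 (1926 and 1840 CPM against 2118 to 2302 CPM), PSAE2 and PSBQ2 were also lowest in these dark libraries. LHCA3 (2271 and 2147 CPM against 1873 to 2016 CPM) and PSAH2 were instead highest there. For LHCB1.1 the red light libraries held 4782 to 5391 CPM, lowest in wild type replicate 2 (4930 CPM) and mutant replicate 3 (4782 CPM). Its rise was called in both genotypes with edgeR (log2 0.38 ± 0.11, adjusted p = 0.0185, and 0.37 ± 0.11, adjusted p = 0.0211), and in neither with DESeq2 (adjusted p = 0.131 and 0.156). The edgeR call was lost in the wild type without dark replicate 1 (log2 0.26, adjusted p = 0.0881) or red light replicate 1 or 3 (adjusted p = 0.074 and 0.0591). In the mutant it was lost without dark replicate 3 (log2 0.22, edgeR adjusted p = 0.104) or red light replicate 1 or 2 (adjusted p = 0.051 and 0.102).

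In the antenna of photosystem I, the 4 belt genes rose in both genotypes, LHCA6 rose in the mutant, and LHCA5 was called in neither. LHCA1 (AT3G54890, chromosome 3, 20339504 to 20341176, minus strand) had 2365, 2541 and 2525 CPM in the wild type dark libraries and 3686, 3760 and 3641 CPM in red light. In the mutant LHCA1 had 2592, 2316 and 2117 CPM in the dark and 3868, 3851 and 3676 CPM in red light. The rise was 1.49-fold (log2 0.58 ± 0.06, edgeR adjusted p = 1.48e-07) and 1.62-fold (log2 0.70 ± 0.06, edgeR adjusted p = 6.50e-09), with no overlap. LHCA4, its partner in a dimer, rose by 0.39 ± 0.07 and 0.48 ± 0.07 on the log2 scale (edgeR adjusted p = 1.05e-04 and 5.84e-06). LHCA3 rose by 0.27 and 0.34 and LHCA2 by 0.19 and 0.24, all called by edgeR. The wild type call of LHCA2 (adjusted p = 0.0268) was lost without dark replicate 1 or red light replicate 2 (adjusted p = 0.104 and 0.0921).

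LHCA5 and LHCA6 are known as rare antenna proteins that join photosystem I to the NDH complex. LHCA5 (AT1G45474) stood at 85.8 to 97.4 CPM in wild type dark libraries and at 88.6 to 106 CPM in red light, so the groups overlapped (log2 0.09 ± 0.09, edgeR adjusted p = 0.6). In the mutant it had 80.7 to 97 CPM in the dark and 100 to 112 CPM in red light, and the change was not called (log2 0.21 ± 0.09, edgeR adjusted p = 0.136). LHCA6 (AT1G19150) had 148, 141 and 147 CPM in the wild type dark libraries and 160, 153 and 152 CPM in red light, without a call (log2 0.09 ± 0.08, edgeR adjusted p = 0.525). In the mutant LHCA6 had 146, 126 and 142 CPM in the dark and 150, 168 and 168 CPM in red light, and this rise was called (log2 0.24 ± 0.08, edgeR adjusted p = 0.041), but not with DESeq2 (adjusted p = 0.081) and not without 1 of 7 single libraries (edgeR adjusted p = 0.0504 to 0.214; the wild type dark replicate 3, any wild type red light replicate, the mutant dark replicate 2 or the mutant red light replicate 2 or 3). The difference between the genotypes in the LHCA6 response did not pass (0.15 ± 0.11, edgeR adjusted p = 1).

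LHCA6 and LHCA5 stood well below LHCA1 to LHCA4, whose dark libraries held 1873 to 3462 CPM. The LHCA sum rose from a mean of 11138 ± 236 to 14220 ± 390 CPM in the wild type and from 10821 ± 610 to 14654 ± 389 CPM in the mutant (SD, n = 3).

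**Figure D4:**
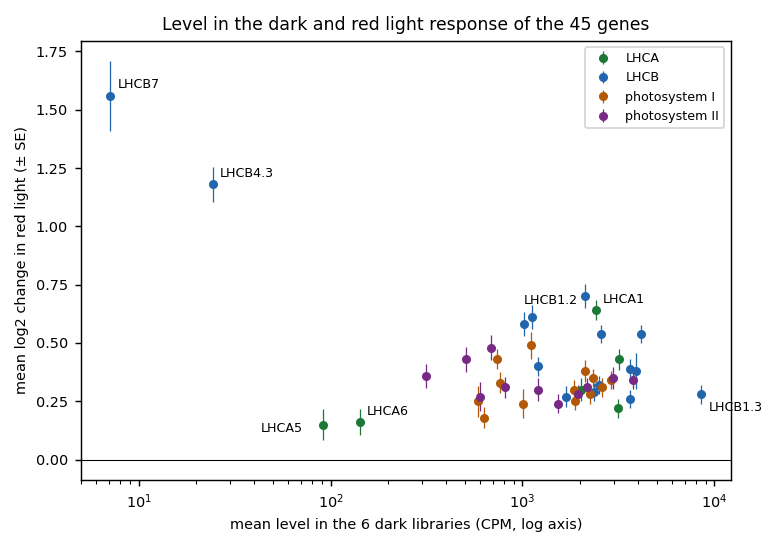
Mean level over the 6 dark libraries (horizontal axis, CPM, log scale) against the mean log2 change in red light of both genotypes (vertical axis, ± SE) for the 45 genes, coloured by class. The 4 least abundant genes hold both the largest changes (LHCB7, LHCB4.3) and the smallest (LHCA5, LHCA6), and the others lie between PSAH1 at 0.18 and LHCB1.2 at 0.70.

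The log2 changes of the photosystem I subunits ranged from 0.18 to 0.43 in the wild type and from 0.13 to 0.54 in the mutant. Of 13 genes, 11 rose in each genotype, with a median log2 change of 0.29 in the wild type and 0.35 in the mutant. PSAN, a lumenal subunit at the plastocyanin docking site, had 1036, 1237 and 1151 CPM in the wild type dark libraries and 1633, 1473 and 1502 CPM in red light. Mutant libraries had 1210, 1063 and 943 CPM against 1577, 1645 and 1462 CPM. Its change was the largest of the class (log2 0.43 ± 0.08, edgeR adjusted p = 3.56e-04, and 0.54 ± 0.08, edgeR adjusted p = 1.83e-05). PSAP, also known as the thylakoid curvature protein CURT1B, rose by 0.42 ± 0.06 and 0.44 ± 0.06 (edgeR adjusted p = 1.64e-05 and 8.37e-06). PSAL, at the side where the mobile antenna docks, rose by 0.34 ± 0.07 and 0.41 ± 0.07 (edgeR adjusted p = 7.87e-04 and 7.18e-05).

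The genes for the ferredoxin docking subunits came in pairs. PSAD1 and PSAD2 rose by 0.26 and 0.30 in the wild type and by 0.34 and 0.36 in the mutant. PSAE1 rose by 0.21 ± 0.06 and 0.28 ± 0.06 (edgeR adjusted p = 0.00857 and 8.28e-04), and the smaller PSAE2 missed the threshold in both genotypes (0.25 ± 0.09 and 0.26 ± 0.09, edgeR adjusted p = 0.0827 and 0.0655). PSAE2 red light libraries nonetheless lay above dark libraries, with 519, 643 and 604 CPM against 758, 666 and 670 CPM in the wild type and 639, 623 and 487 CPM against 745, 696 and 647 CPM in the mutant. PSAE2 was called in the wild type without wild type dark replicate 2 or mutant dark replicate 3 (edgeR adjusted p = 0.0329 and 0.0169), and in the mutant without replicate 1 of either dark group (0.0265 and 0.0305).

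PSAH genes encode the subunit next to PSAL. PSAH2 was not called in the wild type, where 1152, 961 and 942 CPM in the dark overlapped 1127, 1255 and 1088 CPM in red light (log2 0.18 ± 0.09, edgeR adjusted p = 0.18), and the highest dark value was in replicate 1. Without that library it was called (log2 0.29, edgeR adjusted p = 0.0197). PSAH1 was not called in the mutant (log2 0.13 ± 0.06, edgeR adjusted p = 0.167), where 679, 628 and 639 CPM faced 701, 731 and 704 CPM. Each was called in the other genotype, PSAH1 with 0.22 ± 0.06 (edgeR adjusted p = 0.014; 0.0724 without wild type dark replicate 3) and PSAH2 with 0.29 ± 0.09 (edgeR adjusted p = 0.0205; 0.0772 to 0.132 without mutant dark replicate 2 or mutant red light replicate 2 or 3). The difference between the genotypes passed for neither (−0.09 ± 0.09 for PSAH1 and 0.11 ± 0.12 for PSAH2, edgeR adjusted p = 1 each). PSAF, PSAG, PSAK and PSAO, which lie at the plastocyanin side or the antenna contacts, rose by 0.26 to 0.29 in the wild type and 0.28 to 0.41 in the mutant.

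All 11 photosystem II subunit genes rose in both genotypes, with medians of 0.27 and 0.36. PSBY, a small membrane subunit, rose from 639, 749 and 727 to 943, 881 and 911 CPM in the wild type and from 748, 651 and 584 to 986, 997 and 999 CPM in the mutant. That is 1.29-fold (log2 0.37 ± 0.08, edgeR adjusted p = 0.00112) and 1.51-fold (log2 0.59 ± 0.08, edgeR adjusted p = 3.41e-06). PSBO2, the smaller of both genes for the protein that stabilises the manganese cluster, rose by 0.35 ± 0.08 and 0.51 ± 0.08 (edgeR adjusted p = 0.00216 and 2.40e-05). Its partner PSBO1 rose by 0.33 and 0.37. PSB27, a lumenal factor of photosystem II assembly and repair, was the least abundant of the class (291 to 335 CPM in the dark, 383 to 426 CPM in red light) and rose by 0.35 ± 0.07 and 0.37 ± 0.07 (edgeR adjusted p = 0.0012 and 5.59e-04).

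The smallest change of the class was in PSBX in the wild type (0.17 ± 0.06, edgeR adjusted p = 0.0425) and in PSBQ2 in the mutant (0.28 ± 0.09, edgeR adjusted p = 0.0305). In the wild type PSBQ2 rose by 0.26 ± 0.09 (edgeR adjusted p = 0.0454). These calls were close to the threshold. The PSBX call was lost without wild type dark replicate 2 or 3 or red light replicate 1 or 2 (edgeR adjusted p = 0.0781 to 0.181). The wild type PSBQ2 call was lost without dark replicate 1 or 3, red light replicate 1 or 3, or the mutant red light replicate 2 (0.0552 to 0.21), and the mutant call without dark replicate 3 or red light replicate 1 or 2 (0.109 to 0.162). PSBP1, an extrinsic protein of the oxygen-evolving complex, rose by 0.26 ± 0.06 and 0.30 ± 0.06 (edgeR adjusted p = 0.00175 and 3.64e-04). PSBR, which helps to bind the extrinsic proteins, was the most abundant of the 11 genes (3596 to 3922 CPM in the dark) and rose by 0.28 ± 0.05 and 0.40 ± 0.05 (edgeR adjusted p = 2.59e-04 and 2.34e-06).

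Several of these proteins are encoded by close copies, and the balance between copies was followed by the log2 ratio of their counts within a library, which does not depend on library scaling. Of 21 pairs in 8 families, 12 shifted in red light (exact two-sided permutation test with light labels permuted within genotype, 400 arrangements, smallest p 0.005, Benjamini-Hochberg over 42 tests). Pairs within a family share genes and are not independent.

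Of the 5 LHCB1 genes, LHCB1.3 was highest in every library (7596 to 9157 CPM in the dark, 9999 to 10779 CPM in red light) and LHCB1.2 lowest (1840 to 2302 and 3247 to 3598 CPM). LHCB1.2 gained on each of the other 4 copies. Its log2 ratio to LHCB1.3 was −2.08, −1.94 and −2.03 in the wild type dark libraries and −1.62, −1.62 and −1.58 in red light. In the mutant the ratio was −2.02, −1.98 and −2.05 in the dark and −1.50, −1.60 and −1.62 in red light, so light and dark did not overlap (mean shift 0.43, exact permutation p = 0.005, adjusted p = 0.0233). LHCB1.2 also gained 0.32 on LHCB1.4 and 0.17 on LHCB1.5, and LHCB1.1 lost 0.31 against it (adjusted p = 0.0233, 0.035 and 0.0233 by the same permutation test).

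LHCB1.3 lost 0.25 against LHCB1.5 and 0.11 against LHCB1.4, and LHCB1.4 lost 0.14 against LHCB1.5 (adjusted p = 0.0233, 0.035 and 0.0233, same test). The other 3 pairs, all with LHCB1.1, did not pass (adjusted p = 0.43 to 0.98). The dark libraries that stood apart also differed from the other dark libraries in pairs that passed, such as LHCB1.1 to LHCB1.2, with 0.74 and 0.70 against 0.90 to 1.02.

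In the LHCB2 family LHCB2.1 and LHCB2.2, which lie 22517 bases apart on chromosome 2, both gained on LHCB2.3 of chromosome 3, by 0.34 and 0.31 (adjusted p = 0.0233 each, same permutation test), while their ratio to each other moved by 0.03 (adjusted p = 0.43). The LHCB2.1 to LHCB2.3 ratio was −0.64, −0.59 and −0.59 in the wild type dark libraries and −0.28, −0.26 and −0.34 in red light, and the mutant libraries held −0.54, −0.64 and −0.61 against −0.32, −0.19 and −0.18. In the LHCB4 family LHCB4.3 gained 0.89 on LHCB4.1 and 0.77 on LHCB4.2 (adjusted p = 0.0233 each, same test), and LHCB4.2 gained 0.12 on LHCB4.1 (adjusted p = 0.035). LHCB4.3 still lay 4.80 to 4.93 log2 units below LHCB4.2 in the red light libraries.

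**Figure D5:**
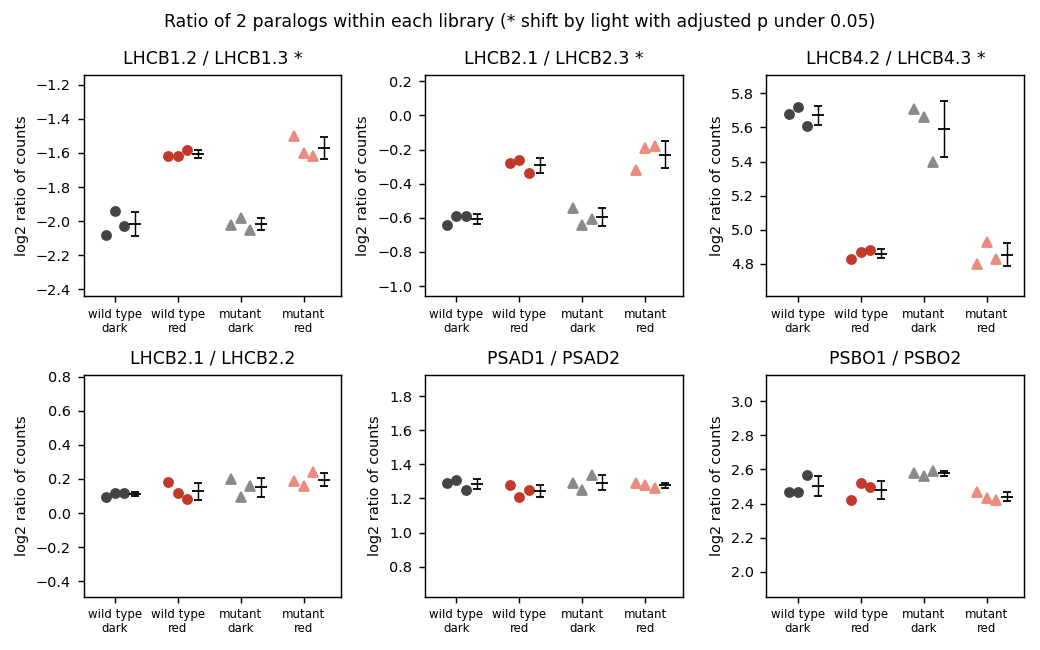
Log2 ratio of the counts of 2 paralogs (vertical axis, of the same height in each panel) per library for 6 pairs in the 4 groups; points are libraries and bars are the mean ± SD of 3. The ratio shifts between dark and red light in the 3 upper pairs and overlaps in LHCB2.1 with LHCB2.2 and PSAD1 with PSAD2.

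The paired subunit genes kept closer ratios. The shift was −0.03 for PSAD1 to PSAD2, −0.01 for PSAE1 to PSAE2, −0.06 for PSAH1 to PSAH2, −0.08 for PSBO1 to PSBO2 and 0.04 for PSBQ1 to PSBQ2, and none passed (adjusted p = 0.113 to 0.932, same permutation test). Between genotypes none of the 21 pairs passed (smallest exact permutation p = 0.045 for LHCB1.3 to LHCB1.5, adjusted p = 0.135).

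Copies can share reads, and the sources used here do not say how reads matching several genes were handled. The coding sequences of LHCB1.1, LHCB1.2 and LHCB1.3 were 95.6 to 96.4% identical in TAIR10.1. The longest identical runs in these coding sequences were 74 to 119 bases. The last 200 bases of their annotated mRNAs were 51.1 to 54.5% identical, with no identical run longer than 20 bases. Gene counts do not show where in a transcript the tags fell, so the share of reads common to copies was not tested.

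The regulatory ends of the genes are shown for the 4 members with the largest mean change (LHCB7, LHCB4.3, LHCB1.2 and LHCA1) and the 2 with the smallest (LHCA5 and LHCA6), because these are the extremes of the response. Each sequence is the 250 bases before the annotated start in the RefSeq TAIR10.1 genome, 5′ to 3′ on the strand of the gene. Capitals mark matches on either strand to 6 motifs known from light or clock control. The G-box is CACGTG, bound by many bZIP and PIF factors. A second motif is CCAATC, known from studies of GLK binding. The I-box core is GATAAG, a motif of many light-regulated promoters. The evening element of clock-controlled genes is AAAATATCT, and the clock factor CCA1 is known to bind AAAAATCT as well as the related form AACAATCT. No motif contains another.
LHCB7: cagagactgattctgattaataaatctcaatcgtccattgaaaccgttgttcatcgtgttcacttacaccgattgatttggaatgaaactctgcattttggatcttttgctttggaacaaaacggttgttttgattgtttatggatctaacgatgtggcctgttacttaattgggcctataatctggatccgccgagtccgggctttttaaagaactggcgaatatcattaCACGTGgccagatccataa
LHCB4.3: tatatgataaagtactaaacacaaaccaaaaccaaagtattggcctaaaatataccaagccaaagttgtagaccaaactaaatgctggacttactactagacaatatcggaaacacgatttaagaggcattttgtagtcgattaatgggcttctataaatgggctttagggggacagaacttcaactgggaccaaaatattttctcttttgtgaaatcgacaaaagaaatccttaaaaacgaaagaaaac
LHCB1.2: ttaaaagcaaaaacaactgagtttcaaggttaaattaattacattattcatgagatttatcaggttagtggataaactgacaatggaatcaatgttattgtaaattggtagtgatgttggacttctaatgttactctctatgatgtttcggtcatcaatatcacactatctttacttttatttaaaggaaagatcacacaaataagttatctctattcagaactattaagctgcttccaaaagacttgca
LHCA1: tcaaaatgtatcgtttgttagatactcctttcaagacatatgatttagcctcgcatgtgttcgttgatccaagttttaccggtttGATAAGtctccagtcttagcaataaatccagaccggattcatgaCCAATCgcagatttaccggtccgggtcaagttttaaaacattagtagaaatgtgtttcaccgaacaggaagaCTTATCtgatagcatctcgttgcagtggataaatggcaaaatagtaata
LHCA5: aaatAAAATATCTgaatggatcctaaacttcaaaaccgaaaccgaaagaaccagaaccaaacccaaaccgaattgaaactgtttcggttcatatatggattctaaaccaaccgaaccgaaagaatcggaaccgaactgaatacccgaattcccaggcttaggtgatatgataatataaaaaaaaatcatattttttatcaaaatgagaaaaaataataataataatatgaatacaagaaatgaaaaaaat
LHCA6: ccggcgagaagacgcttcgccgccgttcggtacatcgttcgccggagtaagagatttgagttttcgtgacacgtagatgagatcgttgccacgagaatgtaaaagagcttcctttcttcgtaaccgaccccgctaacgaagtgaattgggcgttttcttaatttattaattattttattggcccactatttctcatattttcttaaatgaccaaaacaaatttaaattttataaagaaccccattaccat
LHCB7 (chr1:28728748-28728997) holds a G-box whose first base lies 19 bases before the start. LHCA1 (chr3:20341177-20341426) holds an I-box core on each strand, at 165 and 49 bases before the start, the nearer one read as its reverse complement, and between them a CCAATC match at 121 bases before the start. LHCA5 (chr1:17179000-17179249) holds an evening element at 246 bases before the start. In the windows of LHCB4.3 (chr2:16745378-16745627), LHCB1.2 (chr1:10473503-10473752) and LHCA6 (chr1:6612380-6612629) these letters do not occur.

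Over the window from 250 bases before to 50 bases after the start, CACGTG occurred in 16 of the 45 genes (35.6%) against 7.68% of 27443 promoters, and in 7 of the 11 photosystem II subunit genes. CCAATC occurred in 16 of 45 (35.6%) against 12.3%, of which 8 were LHCB genes and 1 a photosystem I subunit gene. GATAAG occurred in 18 of 45 (40%) against 14.6%, of which 8 were photosystem I subunit genes. The evening element was found in 1 gene (2.22% against 2.82%), AAAAATCT in 7 (15.6% against 7.88%) and AACAATCT in 2 (4.44% against 2.24%). In the 250 bases before the start alone, the first 3 shares were 22.2, 26.7 and 20%, against 6.49, 10.2 and 12.3%. There CACGTG was left in 3 of the 11 photosystem II subunit genes and GATAAG in 4 of the 13 photosystem I subunit genes. These are counts of letters and carry no test.

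Between genotypes no member was called in the dark, in red light or in the difference between the red light responses. None had an unadjusted p under 0.05 in any of these comparisons in the main fit, and DESeq2 called none either. In the dark, 11 had an unadjusted p under 0.05 when mutant dark replicate 1, the library with seed storage transcripts, was left out. Without wild type dark replicate 1, PSBY alone did. In red light PSBY and LHCB1.5 did when only the groups compared were fitted. PSBY also did there without the 2 dark libraries that stood apart. After adjustment edgeR called none in any of these settings. Over all genes tested, edgeR called 0.0541% in the dark, 0.0811% in red light and 0% in the difference, and 4.02%, 4.59% and 3.32% had an unadjusted p under 0.05. The median log2 difference, double mutant minus wild type, was −0.041 in the dark (40 of 45 fitted differences negative) and 0.035 in red light (38 of 45 positive). Single libraries moved both values. The dark median was −0.078 without mutant replicate 1, −0.018 and −0.011 without mutant replicate 2 or 3, and −0.027 without wild type replicate 3. The red light median was 0.0066 (25 of 45 positive) without mutant replicate 2 and 0.021 without wild type replicate 3. The summed level of the 45 genes was 86039, 88673 and 89229 CPM in the wild type dark libraries and 91954, 83675 and 80758 CPM in the mutant dark libraries, so that the mutant libraries spanned the wild type range. In red light the sums were 109115, 112259 and 110191 CPM and 110346, 116414 and 112108 CPM.

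The members nearest to a genotype difference were PSBO2, PSAK and LHCA1 in the dark (log2 −0.12 ± 0.08, −0.07 ± 0.05 and −0.08 ± 0.06, edgeR adjusted p = 1 each). In red light they were LHCB1.5, PSBY and PSBX (0.09 ± 0.05, 0.12 ± 0.08 and 0.09 ± 0.06, edgeR adjusted p = 0.999 each). For LHCB1.5 the red light libraries did not overlap, with 5499, 5968 and 5907 CPM in the wild type and 6001, 6339 and 6170 CPM in the mutant. Such a separation in either direction was seen in 4 members and, in all genes tested, in 5.69% upward and 5.42% downward.

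The response was fitted as larger in the mutant for 39 of 45 genes, by a median of 0.071 on the log2 scale, and the member with the smallest p was PSBY (0.22 ± 0.11, unadjusted p = 0.0561, edgeR adjusted p = 1). PSBX (0.15 ± 0.08) and PSBR (0.12 ± 0.07) followed. LHCB7 went the other way with the widest error (−0.32 ± 0.31). These genes move together across libraries, so the 39 are not independent. limma-voom gave 3 members with an unadjusted p under 0.05 (PSBY, PSBX and PSBR) and none after adjustment. With edgeR, PSBY alone had such a p with no filter on low counts or without wild type dark replicate 1. PSBY and PSBX did without the 2 dark libraries that stood apart, and none was called after adjustment. The size moved with single libraries. Without mutant dark replicate 1, the library with seed storage transcripts, the median difference was 0.12 and 7 members had an unadjusted p under 0.05. It was 0.045 and 0.043 without mutant dark replicate 2 or 3 and 0.046 without mutant red light replicate 2, with 0, 1 and 0 such members, and edgeR called none after adjustment in any of these. The part of the seed storage transcripts in this was not tested.

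Among 29 genes known for inserting antenna proteins or assembling the photosystems, 6 rose in the wild type and 9 in the mutant by edgeR, none fell, and the median change was 0.064 and 0.18. Over all genes tested, 10.6% and 10.7% were called higher and 4.68% and 5.27% lower, with medians of −0.021 and −0.014. HCF173, needed for translation of the D1 core protein, rose from 70.3 to 72.6 CPM in wild type dark libraries to 157 to 170 CPM in red light (log2 1.20 ± 0.09, edgeR adjusted p = 6.52e-10) and by 1.33 ± 0.09 in the mutant (edgeR adjusted p = 1.03e-10). STN7, the kinase of the LHCB proteins, rose by 0.59 ± 0.11 and 0.59 ± 0.12 (edgeR adjusted p = 6.34e-04 and 6.33e-04). HCF244 rose by 0.52 and 0.56 and PSB28 by 0.45 and 0.54. The chloroplast signal recognition particle genes CPSRP54 and CPSRP43 and the insertase gene ALB3 were not called in either genotype (−0.19 to 0.15).

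Of 8 known regulators, 5 rose and 1 fell in both genotypes. Over all genes tested, the shares were 10.6% and 10.7% higher and 4.68% and 5.27% lower. HY5, a light-activated bZIP factor, rose by 2.39 ± 0.10 in both genotypes (edgeR adjusted p = 1.19e-14 and 1.10e-14). GLK1 and GLK2, activators of antenna genes, rose by 0.55 ± 0.15 and 1.82 ± 0.09 in the wild type (edgeR adjusted p = 0.0132 and 2.88e-13), and by 0.74 ± 0.16 and 1.71 ± 0.09 in the mutant. The GATA factors GNC and CGA1 rose by 1.17 and 4.00 in the wild type and by 0.99 and 3.69 in the mutant. PIF3, a repressor removed by phytochrome, fell by 0.57 ± 0.11 in the wild type (edgeR adjusted p = 5.26e-04). PIF1 and GUN1 were not called.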

How the data were processed

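RNA of 12 whole-seedling libraries was analysed, 3 per group. The values deposited are whole-number counts for each gene in each library, made by the authors from 3′ tag libraries per the labels' protocols. FastQC, HISAT2, HTSeq, edgeR and the build TAIR10 are named per the submitters' processing notes; the sources used here give no versions and no settings for strand or for reads with several matches. The 5 summary lines that name no gene were left out of library sizes and tests; reads that fell on several genes came to 0.943 to 1.28% of the gene counts. Positions and promoters come from RefSeq TAIR10.1, matched by locus identifier (all 45 genes).

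Tests used edgeR 4.0.16 in R 4.3.3: TMM factors, filterByExpr (minimum count 10), 1 quasi-likelihood fit over 12 libraries with a term per group, Benjamini-Hochberg adjusted p under 0.05 over 18487 genes. An SE is the log2 change divided by the square root of F. Paralog ratios used a prior of 0.5 counts. Alternatives were DESeq2 1.42.0, limma-voom 3.58.1, RLE factors, no factors, other filters, a replicate block, fewer groups and each library left out. The scripts were tested on simulated data. Tables and figures used Biopython 1.88, matplotlib 3.10.9, scipy 1.17.1, numpy 2.4.6 and pandas 2.3.3 under python 3.11.15. Replicates differed by more than sampling noise (chi-square per degree of freedom 1.56 to 4.24), so each library counted as 1 sample.

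The members, the lists of assembly factors, regulators and markers and the tests were chosen with earlier results of these data known. Values are given in full for the 3 largest and 2 smallest changes of each class in each red light response, for the 3 smallest p in the other comparisons, and for paralogs by pair; other members are given by range. Tag counts without molecular identifiers include PCR copies.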

Additional observations from a re-analysis of the deposited data

How the results depend on the processing

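Under DESeq2, limma-voom, RLE factors, no filter, a mean of at least 5 CPM, only the groups compared, or without the 2 dark libraries that stood apart, the count of members that rose stayed within 1.5 times of the main count in both genotypes, and none fell. Leaving out 1 library gave 38 to 42 in the wild type and 38 to 43 in the mutant, and no genotype difference was called. For the members picked by the naming rule and the paralog pairs, 1575 of 1666 alternative values kept direction and call, 80 lost the call and 8 gained one. Outside that rule PSAE2 also gained the wild type call in 4 settings. With plain library totals 28 and 35 members rose, and 3 fitted changes reversed without a call: LHCA6 (−0.026) and LHCA5 (−0.026) in the wild type and PSAH1 (−0.00048) in the mutant. On those totals the log2 change of the class sums in the wild type and the mutant fell to 0.24 and 0.30 for LHCA, 0.25 and 0.30 for LHCB, 0.17 and 0.22 for photosystem I, 0.16 and 0.24 for photosystem II, and 0.21 and 0.27 for all 45 members. GATAAG occurred in 20% of members when only the 250 bases before the start were searched. Without 1 library, 9 to 12 paralog pairs shifted with light and 0 to 2 differed between genotypes. Same-numbered libraries correlated by −0.17 to 0.15 in their deviations from the group means, and libraries with different numbers by −0.266 to 0.349. No shared effect of the number was seen, but this cannot show whether same-numbered samples were handled together. With the replicate number as a block 39 members rose in the wild type and 41 in the mutant, and 0 paralog pairs passed, since permuting within genotype and number leaves few arrangements. LHCB7 had the lowest counts of the set.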

Other observations

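Of the 45 genes, 17 overlap another annotated gene in TAIR10.1, 16 of them one on the opposite strand. The sources used here do not say how strand was treated in counting, so reads of such a gene and of its neighbour cannot be told apart with certainty. The most abundant neighbour was AT2G08665, annotated as a long non-coding RNA on chromosome 2 (14522522 to 14523568), which covers all 1045 bases of LHCB1.5 on the other strand. It held 3704, 3112 and 3553 CPM in the wild type dark libraries and 4333, 4957 and 4789 CPM in red light, close to the level of LHCB1.5 itself (4079 to 4297 and 5499 to 5968 CPM). In the mutant it held 3475, 3197 and 3658 CPM in the dark and 4674, 5358 and 5302 CPM in red light. Its change in red light was 0.44 ± 0.07 in the wild type and 0.57 ± 0.07 in the mutant (edgeR adjusted p = 5.02e-05 and 1.37e-06), against 0.48 ± 0.05 and 0.59 ± 0.05 for LHCB1.5. Both were counted although reads that fell on several genes were only 0.943 to 1.28% of the gene counts.

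AT1G55673, which shares 479 bases with PSAG on the opposite strand, held 831 to 1382 CPM and was not called (0.14 ± 0.14 in both genotypes, edgeR adjusted p = 0.584 and 0.598). Its highest dark values were in the libraries that stood apart, 1355 CPM in wild type replicate 1 and 1342 CPM in mutant replicate 3, against 831 to 1103 CPM in the other dark libraries. In red light it was highest in wild type replicate 2 and mutant replicate 3 (1321 and 1382 CPM, against 1060 to 1260 CPM). AT3G27700, which shares 595 bases with LHCB2.3, was lowest in the dark libraries that stood apart (187 and 148 CPM, against 439 to 531 CPM in the other dark libraries). Other neighbours were also lowest there, such as AT5G54280 at LHCB3 (247 and 200 CPM against 559 to 664 CPM) and AT2G20270 at PSAE2 (113 and 112 CPM against 227 to 264 CPM). Like AT1G55673, AT4G28755 at PSAE1 was highest there (459 and 467 CPM against 267 to 315 CPM). Of 18 such neighbours tested, 5 rose and none fell in each genotype by edgeR. Over all genes tested, 10.6% and 10.7% were called higher and 4.68% and 5.27% lower. The neighbours were listed after the values of the members had been seen.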
